A study of Rattus norvegicus with 8 samples.

Results

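The genes described here encode the secreted and membrane-bound cues that steer axons, and the receptors that read them: semaphorins of classes 3 to 7 with neuropilins and plexins, ephrins with Eph receptors, netrins with Dcc and Unc5 receptors, and Slit proteins with Robo receptors. They were taken by gene name from the array's own annotation, which gave 81 of the 15207 probes and 59 genes. A gene was called measured where 4 or more of the 8 arrays showed a probe well above background, and its brightest probe was used. This left 50 genes among 9442 genes and unnamed probes tested in all. One of the 50, Unc50, shares only its letters with the netrin receptors. It is included in counts over the 50 but in no count of ligands, receptors or families. Without it, 34 of 49 differences were below 0, with a median log2 difference of -0.19. Ntn2l is the array's name for the netrin that RefSeq calls Ntn3.

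The samples were total RNA of whole hippocampi from rats 2 months old, each on 1 single-colour Agilent array. The 4 PNFLX samples came from rats given fluoxetine, a blocker of serotonin reuptake, at 10 mg/kg from postnatal day 2 to day 21. The 4 control samples came from rats given the vehicle, 5% sucrose, over the same days. The protocol gives these days, whereas the descriptions of the samples give end days of 25 to 28 for PNFLX and 21 to 24 for controls, 1 day more for each next sample; the days of the protocol are used here. The labels name no strain, sex or litter and do not say that each sample was a separate animal, so p-values measure only the spread between these samples. With 4 arrays a group, that number limits the precision.

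Semaphorins signal through plexins. Most class 3 semaphorins, which are secreted, need a neuropilin as a co-receptor. Ephrins stay on the membrane of the cell that makes them and are read on contact, and Slit proteins bind Robo receptors and mostly repel axons. In the hippocampus these families are known for guiding mossy fibres and entorhinal and commissural axons to their layers, and many remain expressed in the adult, where they act on spines and synapses. Fluoxetine in the first weeks after birth falls in the time when these connections are completed, and the comparison of PNFLX with controls asks what differs in adulthood.

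A single slide held all 8 arrays, with 1 scan date. The 4 PNFLX arrays occupied its second row and the 4 control arrays its first, so that group and position on the slide cannot be told apart. Between 70.5% and 77.9% of probes were well above background on an array, and the 75th percentile of the signal ran from 873 to 941 on PNFLX arrays and from 654 to 880 on control arrays. Hippocampal field markers summed to 41.6 to 43.8 times the array's 75th percentile on PNFLX arrays and to 37.4 to 47.9 times on control arrays, and all 11 that the array carries were measured. The 13 meningeal markers summed to 40.9 to 108 times on PNFLX arrays and to 37.4 to 57.1 times on control arrays, with 12 of 13 differences above 0. The 6 measured choroid plexus markers summed to 3.23 to 5.60 times on PNFLX arrays and to 3.28 to 43.2 times on control arrays, all with differences below 0. None of these marker lists had a member past the threshold in limma, where 0.508% of all features did. At an unadjusted p under 0.05 were 1 of 11 hippocampal field, 3 of 13 meningeal and 0 of 6 choroid plexus markers, where 12.8% of all features were. Of the 5 measured blood markers 2 were, higher in PNFLX. Of the neuronal, oligodendrocyte, astrocyte, microglial and thalamus and striatum markers 0 were. Differences were below 0 for 9 of 11 neuronal, 10 of 12 oligodendrocyte, 6 of 10 astrocyte and 7 of 11 microglial markers. For blood they were below 0 for 0 of 5 and for thalamus and striatum for 3 of 8, where 54.5% of all features were. Their part in what follows was not tested.

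No member passed the test. In the limma fit over all 9442 features, 0 of 50 members had an adjusted p under 0.05 (Benjamini-Hochberg over all features), where 0.508% of all features did. At an unadjusted p under 0.05 there were 8 members, against a background of 12.8%. Of these, 5 were lower in PNFLX (background 7.69%) and 3 higher (5.06%). In 4 members the PNFLX and control values did not overlap, where 11.0% of all features had this, with 3 lower (background 6.57%) and 1 higher (4.46%) in PNFLX. Both counts lie near their backgrounds over the whole array. In whole tissue, fewer cells of a type and less RNA per cell cannot be told apart for any of these genes.

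Differences are given as log2, PNFLX minus control. They were below 0 for 34 of the 50 members and above 0 for 16, where 54.5% of all features were below 0. Without scaling between arrays 17 of the 50 were below 0, with a median of 0.12 beside 0.26 for all features. As scaled, the median difference was -0.17 for the members and -0.04 for all features, and 41 of the 50 members lay within 0.5 of 0, where 81.5% of all features did. Ligands, with 24 of 30 genes measured, had 19 differences below 0 and a median of -0.23. Receptors, with 25 of 28 genes measured, had 15 below 0 and a median of -0.14. The members' 95% intervals reached a median of 0.56 to either side of the difference.

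**Figure D1:**
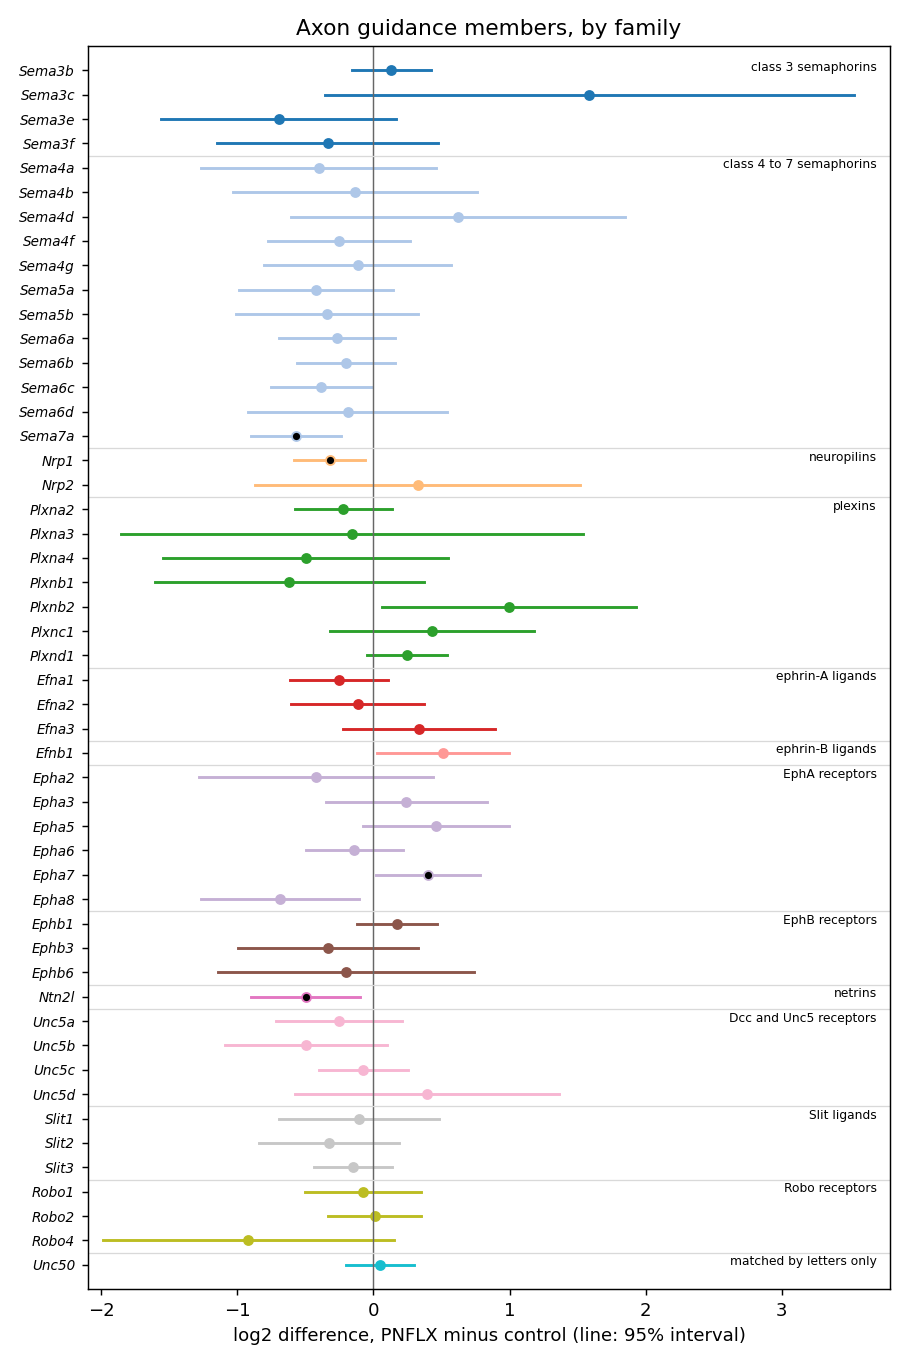
Log2 difference, PNFLX minus control, of the 50 measured axon guidance members by family (horizontal axis), with the 95% interval from limma as a line. Points with a black centre mark the 4 members whose groups do not overlap, Sema7a, Nrp1, Epha7 and Ntn2l; 34 of the 50 points lie left of 0.

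Among the semaphorins of classes 4 to 7, which are bound to the membrane, 11 of 12 differences were below 0, with a median of -0.26, although Sema4b, Sema4f, Sema4g, Sema6a, Sema6b and Sema6d were above 0 without scaling between arrays. Sema7a, a lipid-anchored semaphorin that binds Plxnc1 and integrins, had the smallest p of all members. Its probe carries these bases, read from the array annotation at chr8:61753755-61753814 (rn4, plus strand), and occupies 1 spot.
Sema7a: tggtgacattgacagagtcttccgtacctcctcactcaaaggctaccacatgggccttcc
Levels are log2 of the signal minus the array's 75th percentile, so 0 is the 75th percentile of that array. Sema7a stood at -1.19, -1.20, -1.39 and -1.55 on PNFLX arrays 1 to 4 and at -0.99, -0.75, -0.64 and -0.67 on control arrays 1 to 4. Every PNFLX array lay below every control array, although PNFLX 1 and control 1 were only 0.20 apart. The difference was -0.57 (SE 0.14), a level in PNFLX 0.673 times that in controls, with an adjusted p of 0.148 in limma. Under the 24 other settings tried, the difference kept its sign.

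Sema6c, a transmembrane semaphorin, stood at -1.36, -1.24, -1.10 and -1.68 on PNFLX arrays 1 to 4 and at -0.82, -1.12, -0.86 and -1.05 on control arrays 1 to 4. Only PNFLX 3 reached into the control range, above control 2. The difference was -0.38 (SE 0.16, adjusted p = 0.368 in limma). Sema5a, which carries thrombospondin repeats, had a similar size of difference, -0.42, but the controls sat together between -2.36 and -2.19 while PNFLX ran from -3.39 to -2.11. PNFLX 2 and PNFLX 3, at -2.69 and -2.62, lay below all controls of Sema5a too, and its low end was PNFLX 4. The same array was the lowest PNFLX value of Sema5b (-3.76, against -2.76 to -2.42 in controls), Sema4a (-4.34, against -2.96 to -2.54 in controls) and Sema6b (1.16, against 1.54 to 1.84 in controls). For Sema5b, PNFLX 2 and PNFLX 3, both at -2.80, also lay just below the controls. Without PNFLX 4 the difference was -0.19 for Sema5a, -0.052 for Sema5b and 0.0032 for Sema4a.

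Sema6a, a ligand of class A plexins, went the other way on that array. It stood at -1.60 on PNFLX 4, above the -2.30 to -2.22 of the other PNFLX arrays and above all controls, which ran from -1.98 to -1.63. The remaining differences of the family were -0.40 for Sema4a, -0.14 for Sema4b, -0.25 for Sema4f, -0.12 for Sema4g, -0.34 for Sema5b, -0.27 for Sema6a, -0.20 for Sema6b and -0.19 for Sema6d. Sema4d, a ligand of Plxnb1, was the exception at 0.62 (SE 0.54), and its groups overlapped, with -4.86 to -2.74 in PNFLX and -5.48 to -3.61 in controls.

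The secreted class 3 semaphorins showed no common direction, with 2 of 4 measured members on each side of 0. Sema3f, the main ligand of Nrp2, was dim, and was well above background on 2 PNFLX and 4 control arrays. It stood at -5.29, -6.39, -4.91 and -6.09 on PNFLX arrays 1 to 4 and at -5.72, -5.60, -5.23 and -4.79 on control arrays 1 to 4, a difference of -0.34 (SE 0.36). PNFLX 2 and PNFLX 4 lay below the control range, and the other PNFLX arrays lay inside it. Sema3e, which binds Plxnd1 without a neuropilin, had a difference of -0.70 (SE 0.38), with PNFLX from -5.23 to -3.51 and controls from -4.41 to -3.55. Sema3b had 0.13 (SE 0.13).

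Sema3c, which binds both neuropilins, had the largest difference of the members above 0, at 1.59 (SE 0.85, adjusted p = 0.476 in limma). It stood at -3.99, -5.09, -0.89 and -4.67 on PNFLX arrays 1 to 4 and at -4.73, -6.00, -4.79 and -5.47 on control arrays 1 to 4. The difference came mostly from PNFLX 3, and without that array it was 0.66. With another background correction, normexp, it was -0.47. Sema3a and Sema3d, the other class 3 genes on the array, were well above background on at most 3 and 1 of the 8 arrays and were not tested.

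Of the neuropilins, Nrp1, the co-receptor of Sema3a and of vascular endothelial growth factor, had a probe that lies on 2 spots. It maps to chr19:58487361-58487852 (rn4, plus strand), a span of 492 bases that its 60 bases do not fill.
Nrp1: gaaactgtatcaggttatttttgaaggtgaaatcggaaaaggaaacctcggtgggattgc
On the brighter spot, in row 24 of 192, Nrp1 stood at -2.15, -2.27, -2.16 and -2.31 on PNFLX arrays 1 to 4 and at -1.82, -1.90, -1.99 and -1.89 on control arrays 1 to 4. No PNFLX array reached the control range, and the difference was -0.32 (SE 0.11, adjusted p = 0.296 in limma). The other spot, in row 178, stood at -1.57, -2.15, -1.86 and -2.38 on PNFLX arrays 1 to 4 and at -1.86, -2.04, -2.27 and -2.85 on control arrays 1 to 4. Here the groups overlapped and the difference was 0.26. The mean of both spots gave -0.03 (SE 0.17, adjusted p = 0.958 in limma), so the separation seen on the brighter spot was not seen for the same bases elsewhere on the array. All features of rows 173 to 187 had a median difference of 0.20. With each array's row and column medians subtracted, the 2 spots gave -0.16 and 0.13.

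Nrp2, the receptor of Sema3f, was dim and uneven. It stood at -5.08, -6.20, -3.58 and -5.98 on PNFLX arrays 1 to 4 and at -5.30, -5.77, -5.68 and -5.40 on control arrays 1 to 4. The PNFLX values spanned the whole control range. The difference was 0.33 (SE 0.52), and without PNFLX 3 it was -0.22.

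The 7 plexins had 4 differences below 0 and 3 above. Plxnb2, a receptor of class 4 semaphorins, stood at -2.16, -2.78, -3.12 and -3.94 on PNFLX arrays 1 to 4 and at -4.06, -3.45, -3.73 and -4.75 on control arrays 1 to 4. All PNFLX arrays but PNFLX 4 lay above all controls. The difference was 1.00 (SE 0.41, adjusted p = 0.356 in limma). Its spot lies in row 1, and the 201 features of rows 1 to 5 had a median difference of 0.62, against -0.05 for the 7533 features of rows 21 to 172. With each array's row and column medians subtracted, the difference of Plxnb2 was 0.04.

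Plxnc1, the receptor of Sema7a, had a difference of 0.43 (SE 0.33) beside the -0.57 of its ligand. Its PNFLX values ran from -4.69 to -3.13 with PNFLX 3 on top, and its controls from -4.76 to -4.53. Without PNFLX 3 the difference was 0.077. Plxnd1, the receptor of Sema3e, stood between 0.25 and 0.55 on PNFLX arrays and between 0.03 and 0.28 on control arrays. Only control 2 reached into the PNFLX range, and the difference was 0.25 (SE 0.13, adjusted p = 0.467 in limma). Plxnb1, the receptor of Sema4d, had -0.62 (SE 0.43).

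Plxna4, which reads Sema6 ligands and acts with neuropilins, stood at -4.76, -5.21, -6.48 and -6.65 on PNFLX arrays 1 to 4 and at -5.72, -5.54, -5.25 and -4.61 on control arrays 1 to 4. It was well above background on 2 PNFLX and 4 control arrays. The difference was -0.50 (SE 0.46), with 2 PNFLX arrays below all controls and the others inside their range. Leaving out 1 array moved it between -0.84, without PNFLX 1, and -0.21, without PNFLX 4. Plxna3, which transmits Sema3f signals with Nrp2, ran from -6.23 to -2.25 in PNFLX and from -4.87 to -4.12 in controls, a difference of -0.16 (SE 0.74).

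Plxna2, a receptor of Sema6a, was measured with 2 probes of different bases. The brighter gave -0.22 (SE 0.16), with PNFLX from -2.50 to -2.13 and controls from -2.33 to -1.83. The dimmer stood at -3.63, -3.45, -3.33 and -4.02 on PNFLX arrays 1 to 4 and at -3.22, -3.23, -3.11 and -3.01 on control arrays 1 to 4, a difference of -0.47. On that probe the groups did not overlap, though it is not the probe that entered the count above.

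**Figure D2:**
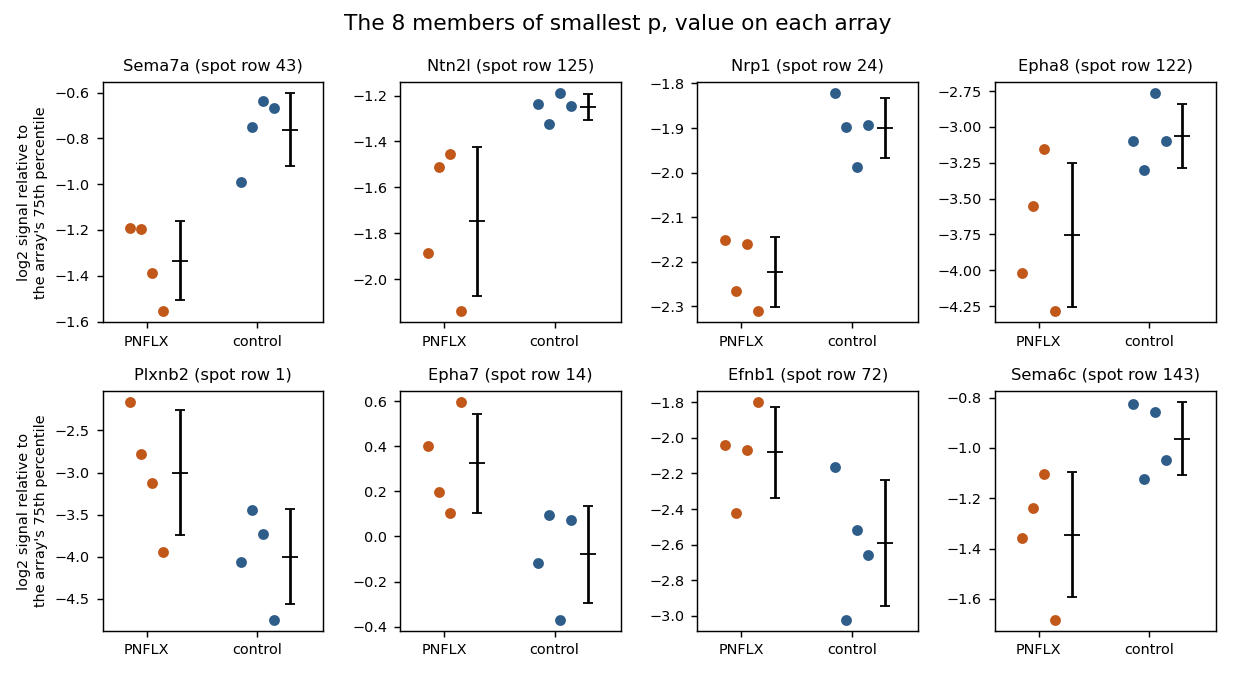
Level on each array (vertical axis, log2 signal relative to the array's 75th percentile) of the 8 members of smallest p, with PNFLX left and control right, 4 arrays each, and mean ± SD beside the points. Sema7a, Ntn2l and Nrp1 lie lower and Epha7 higher in PNFLX with no overlap, and the other 4 panels overlap.

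Of the Eph receptors, the 6 measured by the rule in the EphA group split evenly around 0, and 2 of 3 EphB receptors were below it. Epha7, a receptor of ephrin-A ligands, was the only member higher in PNFLX without overlap. Its probe is joined from bases at chr5:44854189-44858226 (rn4, plus strand), a span of 4038 bases.
Epha7: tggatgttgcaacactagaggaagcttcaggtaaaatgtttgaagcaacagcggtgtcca
Epha7 stood at 0.40, 0.20, 0.10 and 0.60 on PNFLX arrays 1 to 4 and at -0.12, 0.09, -0.37 and 0.07 on control arrays 1 to 4. The lowest PNFLX array, PNFLX 3, and the highest control array, control 2, were almost level. The difference was 0.40 (SE 0.17), a level in PNFLX 1.32 times that in controls, with an adjusted p of 0.363 in limma.

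Epha8 has its probe at chr5:155706477-155706536 (rn4, minus strand), also on 2 spots of the array.
Epha8: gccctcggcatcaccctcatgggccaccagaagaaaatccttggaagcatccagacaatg
On the brighter spot, in row 122, it stood at -4.02, -3.55, -3.15 and -4.29 on PNFLX arrays 1 to 4 and at -3.10, -3.30, -2.77 and -3.10 on control arrays 1 to 4. That gave -0.69 (SE 0.25, adjusted p = 0.313 in limma), with all PNFLX arrays but PNFLX 3 below all controls. On the other spot, in row 64, the same bases stood at -3.24, -3.35, -2.98 and -3.78 on PNFLX arrays 1 to 4 and at -3.78, -4.01, -3.65 and -3.62 on control arrays 1 to 4. There all PNFLX arrays but PNFLX 4 lay above all controls, and the difference was 0.43. The mean of both spots gave -0.13 (SE 0.22).

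Epha5, a receptor of ephrin-A ligands, was measured with 2 probes of different bases on chromosome 14, at chr14:25884306-25884365 and chr14:25880307-25880366 (rn4, plus strand). The sequences are shown because the probes gave opposite signs.
Epha5, brighter probe: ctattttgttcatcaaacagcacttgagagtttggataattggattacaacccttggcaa
Epha5, dimmer probe: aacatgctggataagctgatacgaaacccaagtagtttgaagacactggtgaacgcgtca
On the brighter probe Epha5 stood at 2.20, 2.37, 2.11 and 2.77 on PNFLX arrays 1 to 4 and at 1.31, 2.17, 2.05 and 2.07 on control arrays 1 to 4, a difference of 0.46 (SE 0.23). Control 1 lay well below the other controls, and without it the difference was 0.26. The dimmer probe stood at 1.21, 1.12, 0.95 and 1.42 on PNFLX arrays 1 to 4 and at 1.62, 1.90, 1.22 and 1.51 on control arrays 1 to 4, a difference of -0.39. Its groups overlapped through PNFLX 4 and control 3, and the mean of both probes gave 0.04.

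The other EphA receptors differed little beside their error: Epha6 had -0.14 (SE 0.16), Epha3 0.24 (SE 0.26) and Epha2 -0.42 (SE 0.38). The Epha4 probe carries another name in the array's annotation and lies outside the 59 genes. It stood between -2.15 and -1.83 on PNFLX arrays and between -1.91 and -1.75 on control arrays, a difference of -0.14. Among EphB receptors, Ephb1 had 0.17 (SE 0.13), Ephb3 -0.33 (SE 0.29) and Ephb6, whose kinase domain is inactive, -0.20 (SE 0.41). Ephb3 rested on PNFLX 4 at -3.67, with the other PNFLX arrays from -2.71 to -2.54 and controls from -3.03 to -2.23. Its other spot of the same bases gave 0.09, and the mean of both spots -0.12.

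The ephrins were measured for 4 of 7 genes. Efnb1, the transmembrane ligand of EphB receptors, stood at -2.04, -2.42, -2.07 and -1.80 on PNFLX arrays 1 to 4 and at -2.17, -3.02, -2.52 and -2.66 on control arrays 1 to 4. Only control 1 reached into the PNFLX range. The difference was 0.51 (SE 0.21), a level 1.43 times that in controls, with an adjusted p of 0.366 in limma. The lipid-anchored ephrin-A ligands had -0.25 for Efna1, -0.12 for Efna2 and 0.33 for Efna3. Efnb2 and Efna5 were well above background on no array, and Efna4 on at most 3. Efnb3 and Ephb2 had no probe under the rule.

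Of the netrin system, Ntn2l was measured and Ntn1, the founding netrin, was well above background on no array. The Ntn2l probe maps to chr10:13459167-13459297 (rn4, minus strand), a span of 131 bases, and lies on 2 spots.
Ntn2l: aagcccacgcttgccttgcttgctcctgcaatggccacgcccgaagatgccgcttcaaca
On the brighter spot Ntn2l stood at -1.89, -1.51, -1.46 and -2.14 on PNFLX arrays 1 to 4 and at -1.24, -1.33, -1.19 and -1.25 on control arrays 1 to 4. Controls sat close together and every PNFLX array lay below them. The difference was -0.50 (SE 0.17), a level 0.708 times that in controls, with an adjusted p of 0.293 in limma. On the other spot it was -0.22, and for the mean of both spots -0.36 (SE 0.18, adjusted p = 0.472 in limma).

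Dcc, which mediates attraction to netrins, was well above background on at most 2 arrays and was not tested. The 4 Unc5 receptors, which mediate repulsion, had 3 differences below 0. Unc5d stood at -3.94, -3.92, -3.34 and -4.33 on PNFLX arrays 1 to 4 and at -5.58, -4.01, -3.81 and -3.70 on control arrays 1 to 4. Its difference of 0.39 (SE 0.42) rested on control 1, without which it was -0.04. Unc5b had -0.49 (SE 0.26), with PNFLX 4 at -3.73 and PNFLX 2 at -2.82 below the control range of -2.70 to -2.20. Unc5a had -0.26 (SE 0.20) and Unc5c, with PNFLX from -0.53 to -0.15 and controls from -0.41 to -0.07, had -0.07 (SE 0.14).

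All 3 Slit ligands had differences below 0 and within 0.5, although Slit1 and Slit3 were above 0 without scaling and Slit2 and Slit3 with normexp. Slit1 stood at -0.05, -0.35, -0.40 and -1.21 on PNFLX arrays 1 to 4 and at -0.20, -0.60, -0.16 and -0.63 on control arrays 1 to 4, a difference of -0.11 (SE 0.26). PNFLX 4 alone lay below the controls, and without it the difference was 0.13. The other Slit1 spot of the same bases gave -0.20. A Slit1 probe of different bases gave 0.013, and 0.21 with row and column medians subtracted. Slit2 stood at 2.38, 1.80, 1.99 and 2.19 on PNFLX arrays 1 to 4 and at 3.01, 2.22, 2.29 and 2.15 on control arrays 1 to 4, a difference of -0.33 (SE 0.23). Control 1 was far above the rest, and without it the difference was -0.13. A further pair of spots annotated to Slit2 maps to chromosome 6 rather than chromosome 14 and was well above background on at most 1 array. Slit3 had -0.15 (SE 0.13).

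Robo1 stood at -3.20, -2.98, -2.58 and -3.09 on PNFLX arrays 1 to 4 and at -2.85, -2.99 and -2.82 on control arrays 1, 2 and 4, with the spot on control 3 left out for its outlier flag. The difference was -0.08 (SE 0.18) on 4 and 3 arrays, and -2.01 with the flagged spot kept. Robo2 stood at -2.46, -2.38, -2.18 and -1.92 on PNFLX arrays 1 to 4 and at -2.21, -2.30, -2.17 and -2.28 on control arrays 1 to 4, a difference of 0.01 (SE 0.15) with the PNFLX values on both sides of the controls. A second Robo2 probe gave -0.29. Robo4, the Robo protein of endothelium, had the lowest difference of the members, -0.92 (SE 0.47, adjusted p = 0.456 in limma). It ran from -5.71 to -3.62 in PNFLX and from -4.15 to -2.77 in controls, and of the 11 measured endothelial and pericyte markers 6 were below 0 and 5 above. Robo3 was well above background on no array. The letter match Unc50 had 0.05 (SE 0.11).

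The array holds many probes on 2 spots with identical bases, and the gap between their 2 differences holds the error of both spots. Dim and bright probes are pooled here. Over the 1488 pairs with both spots kept, the differences of the 2 spots lay a median of 0.22 apart, and 0.94 at the 90th percentile. Over the 938 pairs in rows 21 to 172 the median gap was 0.16 and the 90th percentile 0.62. Of the members, 11 had such a pair, with a median gap of 0.26 and a largest of 1.30, for Sema6b. Its second spot, in row 179, gave -1.50 with the flagged spots on PNFLX 1 and control 4 left out. The smallest gap was 0.05, for Plxnc1 at 0.43 and 0.37. Of the 8 members of smallest p, Ntn2l, Nrp1 and Epha8 had such a pair. Their gaps were 0.28, 0.59 and 1.11, beside differences of -0.50, -0.32 and -0.69 on the brighter spot. Sema7a, Efnb1, Sema6c, Epha7 and Plxnb2 each occupied 1 spot, so they had no gap of their own. The pooled gaps are not the error of 1 spot's difference and set no limit for it.

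**Figure D3:**
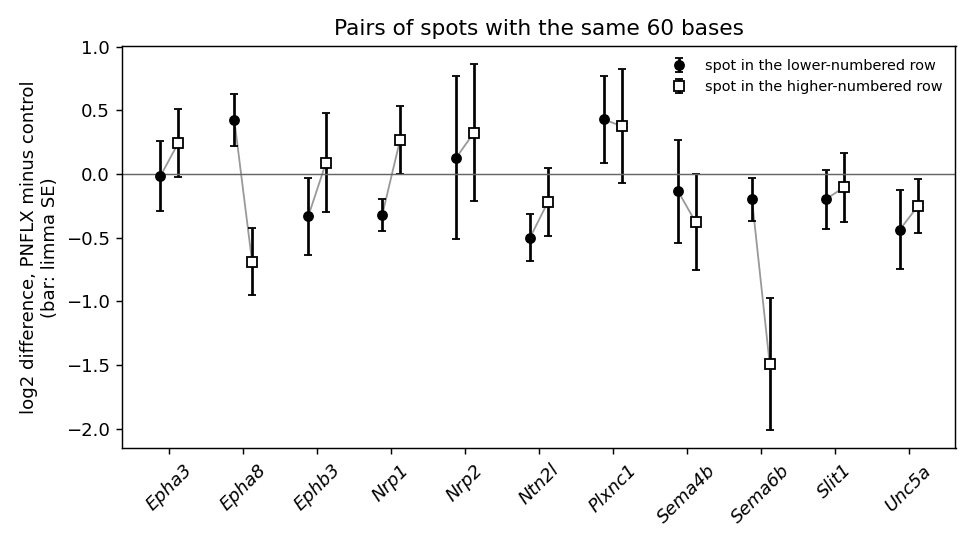
Log2 difference, PNFLX minus control (vertical axis, bar: limma SE in a fit of every probe), on each of the 2 spots that hold the same bases, for the 11 members with such a pair. Filled circles are the spot in the lower-numbered row and open squares the other; Epha8, Nrp1 and Sema6b have the widest gaps, and Plxnc1 and Slit1 the narrowest.

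The members did not deviate alike on the 4 PNFLX arrays. Each probe's deviation from its own mean over the 8 arrays had a median over members of 0.08, -0.10, 0.06 and -0.43 on PNFLX arrays 1 to 4 and of 0.16, 0.03, 0.03 and 0.05 on control arrays 1 to 4. The same over all features was -0.07 on PNFLX 4. PNFLX 4 held the lowest value of 20 of the 50 members (40%), where it held the lowest of 28.1% of all features. Without PNFLX 4 the members' median difference was -0.06.

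Dim and bright members were both low on PNFLX 4, and dim ones were high on PNFLX 3. For the 20 members with a mean level below -3 the median deviation was 0.72 on PNFLX 3 and -0.60 on PNFLX 4, where all 3316 such features had 0.30 and -0.25. PNFLX 3 held the highest value of 11 of these 20 members but of 1 of the 30 brighter ones. For the 30 brighter members the median deviation was -0.29 on PNFLX 4, where all 6126 such features had 0.02, and 0.24 on control 1. The SE had a median of 0.39 for dim members and of 0.18 for bright ones.

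**Figure D4:**
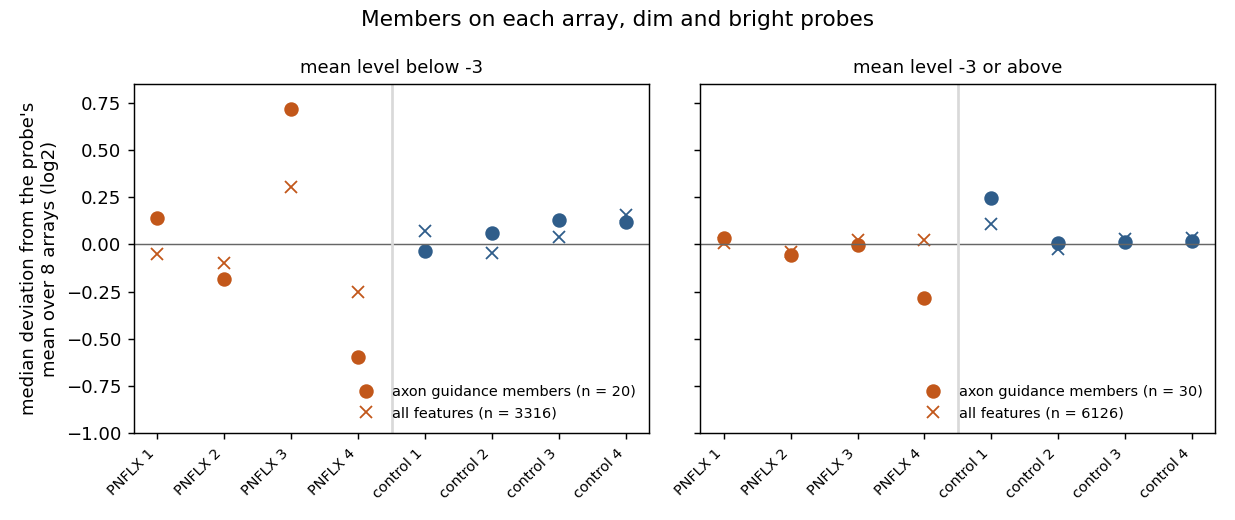
Median deviation of a probe from its mean over the 8 arrays (vertical axis, log2) on each array, for dim (left) and bright (right) probes, with circles for axon guidance members and crosses for all features, PNFLX in orange and control in blue. Members sit at 0.72 on PNFLX 3 and -0.60 on PNFLX 4 among dim probes and at -0.29 on PNFLX 4 among bright ones.

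Position on the array was compared too, since the edges differed between groups. In rows 21 to 172 there were 39 measured members, of which 28 had differences below 0, with a median of -0.20 beside -0.05 for all features there. At an unadjusted p under 0.05 in limma were 15.4% of these members, 1 higher and 5 lower in PNFLX. Of all features in these rows 9.84% were. The groups did not overlap for 3 of these members, where 9.16% of all features there had this. In rows 173 to 187 the 7 members had a median of -0.12 where all features had 0.20. With row and column medians subtracted, 31 of 50 members were below 0, where 46.0% of all features were, and the medians were -0.14 and 0.03. The members whose groups then did not overlap were Sema7a, Ntn2l, Epha8 and Sema6c, all lower in PNFLX, 4 of 50 beside a background of 8.75%. For Ntn2l and Epha8 this held on the brighter spot, with differences of -0.41 and -0.48 after the subtraction. Their other spot of the same bases then gave 0.00094 for Ntn2l and 0.36 for Epha8. Sema7a and Sema6c had no second spot.

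**Figure D5:**
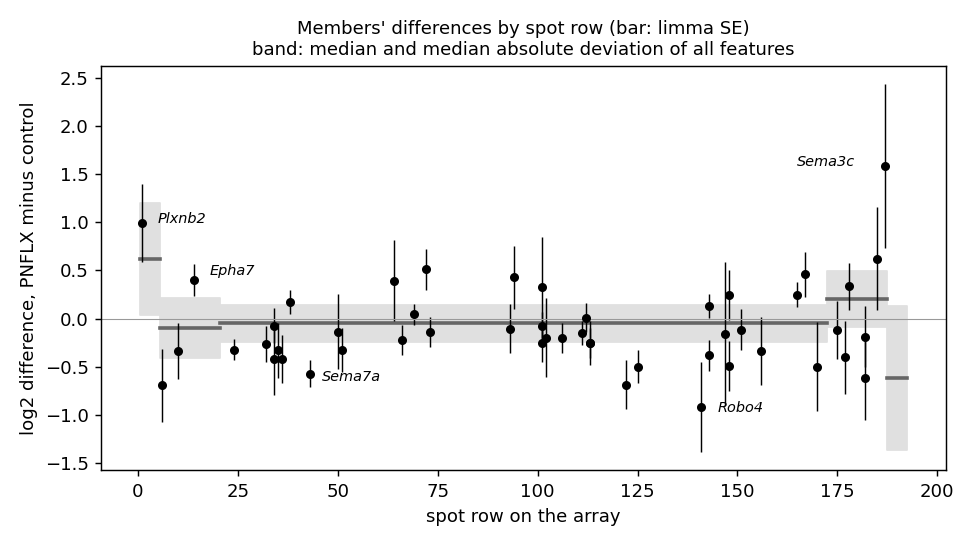
Log2 difference, PNFLX minus control (vertical axis, bar: limma SE), of the 50 members against the row of their spot on the array (horizontal axis), with the median and median absolute deviation of all features in 5 ranges of rows as a grey line and band. Plxnb2 in row 1 lies in a range of rows whose median is 0.62, while Sema7a in row 43 lies in one with a median of -0.05.

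Genes that act below these receptors were counted too. Of 58 guidance effectors listed, such as kinases and cytoskeletal proteins, 51 were measured and 0 passed in limma, where 0.508% of all features did. At an unadjusted p under 0.05 there were 4 (background 12.8%), and 22 differences were above 0 and 29 below, where 54.5% of all features were below. Rgs3, which links ephrin-B to G protein signalling, had -0.88 (SE 0.33), and Cfl1, which severs actin, had -0.43 (SE 0.16), both without overlap. Pak2, a kinase activated by Rac and Cdc42, had 0.74 (SE 0.25), and Tiam1, an activator of Rac, had 1.35 (SE 0.51) on a spot in row 3.

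Of 53 other guidance cues and adhesion receptors, 39 were measured and 0 passed in limma beside the 0.508% of all features. At an unadjusted p under 0.05 there were 3 (background 12.8%), and 16 differences were above 0 and 23 below, beside 54.5% of all features below. Boc, a receptor of Sonic hedgehog in commissural axons, had -0.61 (SE 0.17, adjusted p = 0.196 in limma) without overlap. Rtn4rl2, a relative of the Nogo receptor, had -0.86 (SE 0.30), Vangl2, a planar polarity protein, had 0.80 (SE 0.31) on a spot in row 5, and Mag, a myelin inhibitor of axon growth, had -0.33 (SE 0.15). Outside these lists, the genes whose levels followed Sema7a most closely over the 8 arrays were Mfn1, Plbd2, Crispld2, Dgat1 and Adgre5, with Pearson's r from 0.955 to 0.984, given as a description of arrays that share the slide layout. All had differences below 0, from -2.62 to -0.34. Sema7a was taken as the member of smallest p between the groups, so these correlations include the group difference itself.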

How the data were processed

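Spot intensity values came from Agilent Feature Extraction 10.5.1.1 on rn4 probe annotation, per the file headers, and were not normalized between arrays. A log2 table deposited by the authors was rebuilt from these intensities to within 0.0024 as the level defined next, less the median of each probe; its column medians were -0.04, -0.07, 0.10 and -0.13 for PNFLX 1 to 4 and 0.06, -0.05, 0.04 and 0.04 for controls 1 to 4.

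A level is log2 of a spot's processed signal, from which log2 of the 75th percentile over the 15207 non-control probes of that array was subtracted. Outlier flags removed 521 spots. A probe was kept if 4 or more of the 8 arrays showed it well above background, and the brightest probe of a gene was taken. The source names gave the groups, which limma 3.58.1 (R 4.3.3) compared (group as the single factor, Benjamini-Hochberg over 9442 features, threshold 0.05), tested on simulated data first. Symbols came from a RefSeq table of assembly GRCr8, which named 14319 probes; probe sequences and positions are the array's. Strand was read from the order of the coordinates, which matched RefSeq for 62 of 65 member probes that could be compared.

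The members and lists were chosen with earlier results of these data known. Levels on each array are given for members without overlap or with an unadjusted p under 0.05 and for a set of named guidance genes; Sema3c, the dimmer Plxna2 probe and members described by range were added after their values were seen. For other lists, up to 4 genes of smallest p are named. Same-numbered PNFLX and control arrays share a column of the slide. Their deviations from the group means correlated by 0.01 to 0.09, beside -0.08 to 0.04 for arrays of different numbers. The labels state no pairing, and the main fit did not pair samples. A fit with the number as a block is given below.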

Additional observations from a re-analysis of the deposited data

Results flagged for a closer look

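With 4 arrays a group, 1 array stood apart from the other 3 by Dixon's test at the 95% level (gap to the nearest array over the range of the group) in 9 of the 99 groups looked at (9.09%), and chance flags about 1 in 20. Among PNFLX arrays, PNFLX 1 was highest for Epha6 at -2.85 (ratio 0.908). PNFLX 4 was lowest for Ephb3 at -3.67 (0.851) and highest for Sema6a at -1.60 (0.881). Among controls, control 1 was lowest for Epha5 at 1.31 (0.854) and for Unc5d at -5.58 (0.836), and highest for Slit2 at 3.01 (0.836). Control 3 was lowest for Sema3b at -1.96 (0.961) and for Sema4b at -5.39 (0.862), and control 2 was highest for Plxnd1 at 0.28 (0.835).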

How the results depend on the processing

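No member passed the threshold under any of the 24 settings tried besides the one reported (smallest adjusted p 0.0817 in limma), and 383 of 402 values of the 17 members chosen by rule for levels on each array kept their direction. The count of all features past the threshold, 48, was 27 with normexp, 108 without scaling, 26 without a filter, 25 with probes well above background on all 8 arrays, 31 with row and column medians subtracted, and 0 in limma without the first and last 5 or 20 spot rows (1092 and 832 at an unadjusted p under 0.05). It was 5 with the replicate block, which changed no call of a member. It ran from 14 to 60 when 1 array was left out, with 21, 14 and 20 without PNFLX 1, 2 and 4 and 28, 15 and 17 without controls 1, 3 and 4. The members' median was -0.62 with normexp (all features -0.39) and 0.12 without scaling (all features 0.26), and ran from -0.25 to -0.06 when 1 array was left out. Members without overlap numbered 4 to 11 in those fits, where 3 arrays against 4 overlap less by construction: 8 and 11 without PNFLX 1 and 3, and 9 and 7 without controls 2 and 3. The background of 11.0% belongs to the main fit and does not apply to these counts. They are given without a share over all features and cannot be read as above or below one. Of the settings, 3 were added after seeing the data. Subtracting row and column medians of the values, tried first, gave 10 features past the threshold and was replaced by medians of deviations after both counts were seen. Averaging spots of the same bases left 2 members without overlap, also given without a share over all features. Testing unnamed probes singly gave 52 features past the threshold. Over all 50 members, 14 had the opposite sign with normexp, 11 of them then below 0 (Sema3c at -0.47, Sema4d at -0.96 and Plxnc1 at -0.63 among them), and 17 without scaling, all then above 0. Among the 17 chosen by rule, opposite signs came with normexp for Plxnb2 (-0.22), Efnb1 (-0.13), Nrp2 (-0.72), Unc5d (-0.74), Slit2 (0.16) and Robo2 (-0.46), without scaling for Slit1 (0.19) and Robo1 (0.23), with the mean over probes for Robo2 (-0.14), and with row and column medians of the values for Plxnb2 (-0.034) and Robo2 (-0.083). With 1 array left out, Robo1 ran from -0.20 to 0.00095, Robo2 from -0.098 to 0.083, Nrp2 from -0.22 to 0.66, Slit1 from -0.26 to 0.13 and Unc5d from -0.042 to 0.58. The cause of these moves was not tested. The SE had a median of 0.39 for the 20 dim members and 0.18 for the others, and 31 of 50 intervals lay within 1 of 0.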
